A study of Mus musculus with 6 samples.

Results

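The ubiquitin ligase gene Btrc was followed through single-cell RNA-seq of mouse limb buds, together with its paralogue Fbxw11 and the core genes of the complex in which both products work, Cul1, Skp1a and Rbx1. These 5 genes were taken by name from the 15668 genes counted in both deposited matrices, and all 5 had UMIs (unique molecular identifiers, each standing for 1 captured transcript) in every library. The libraries came from embryos at stage E11.5, and the pairs compared were homozygous Dup against wild-type hindlimbs, both on C57BL/6 (strain c57bl6.J in the labels), and homozygous Inv1 against wild-type hindlimbs and forelimbs, both made from G4 embryonic stem cells, a 129sv/C57BL/6 hybrid line. The alleles were engineered in clones of such cells, and how many clones gave the embryos is not stated. Dup is a tandem duplication at the Lbx1/Fgf8 locus whose copied segment includes Btrc, and Inv1 is an inversion at the same locus that leaves the number of Btrc copies as it was. Each of the 6 groups was 1 library, so no test between groups could be run, nothing in the sources says how many embryos went into a library, and every difference below stands beside counting intervals alone. All intervals are at 95% and cover counting error, not the spread between embryos or libraries.

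SCF complexes are ubiquitin ligases built from the scaffold CUL1, the adaptor SKP1, the RING protein RBX1 that brings in the ubiquitin-conjugating enzyme, and an exchangeable F-box protein that picks the substrate. BTRC and FBXW11 are the F-box proteins called beta-TrCP, which bind substrates such as beta-catenin and the NF-kB inhibitors after these are phosphorylated, and so mark them for the proteasome. In the limb, beta-catenin signalling is needed to form and keep the apical ectodermal ridge (AER), the thickened epithelium along the rim of the bud that secretes FGFs.

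In the mouse build NCBIM37 (mm9), Btrc (ENSMUSG00000025217) lies on chromosome 19 from 45438224 to 45607831 on the plus strand, between Lbx1, at 45307178 to 45310301, and Fgf8, at 45811288 to 45817405. The annotated gene Gm6807, which is not among the counted genes, lies within Btrc on the opposite strand, and its reads would be kept apart from those of Btrc only by strand-specific counting. The other members are elsewhere: Fbxw11 (ENSMUSG00000020271) at 32542724 to 32646816 and Skp1a (ENSMUSG00000036309) at 52045497 to 52060360 on chromosome 11, Cul1 (ENSMUSG00000029686) at 47403397 to 47476138 on chromosome 6, and Rbx1 (ENSMUSG00000022400) at 81296746 to 81306799 on chromosome 15.

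After a limit of more than 2000 detected genes, 24891 of 26486 cells were kept, with 22.7 to 59.4 M UMIs per library and a median of 6729 to 10102 UMIs per cell. Libraries shared 3 to 14 cell barcodes with each other. Levels are counts-per-million (CPM), the UMIs of a gene over all UMIs of a class in a library, scaled to the same total in each. The authors' cell classes were used, and the AER class rests on few cells: 25 in Dup against 16 in C57BL/6 wild-type hindlimbs, 82 in Inv1 against 33 in G4 hindlimbs, and 39 in Inv1 against 10 in G4 forelimbs. Of 10 AER markers, 9 or 10 were found in the AER cells of every library, Fgf4 being at 0 in both G4 libraries, and the 5 endothelial markers were at 0 in all 6. Fgf8, which the authors used to name the AER, was at 37.6 and 10.3 CPM in the AER cells of Inv1 hindlimbs and forelimbs, against 7315 and 2574 CPM in G4. The 16 mesenchyme markers summed to 1044 to 2230.1 CPM in AER cells and the haemoglobin and other erythroid markers to 852 to 3922 CPM, and the part of such RNA from outside the cell in the values below was not tested.

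Btrc was higher in the AER of each mutant library than in that of its wild type. It reached 2316 CPM in Inv1 hindlimb AER cells (1539 UMIs), against 108 CPM in G4 (29 UMIs), and 2115 CPM in Inv1 forelimb AER cells (819 UMIs), against 68.8 CPM in G4 (5 UMIs). In Dup AER cells it was at 345 CPM (54 UMIs), against 61.0 CPM in C57BL/6 wild type (12 UMIs). The counting intervals of mutant and wild type did not overlap in any of the 3 pairs, and the ratios were 21.5 (14.9 to 32.2), 30.7 (13.1 to 94.9) and 5.66 (2.99 to 11.6) in that order. In the G4 forelimb 4 of the 5 UMIs were in 1 cell, and without the highest Btrc cell of each library the forelimb ratio was 131. Over the alternatives it was 19.8 to 131, and the Dup ratio 3.99 to 9.34, the lowest from means over cells and the highest from cells with over 3000 detected genes.

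The place of Btrc among all genes shows how far it stood out. With 50 CPM added to each level, 0.625% of 2878 measured genes were at least 2-fold higher in Inv1 than in G4 hindlimb AER cells, 1.36% of 3303 in the forelimb and 1.19% of 3103 in Dup AER cells, while 0.417%, 2.94% and 0.838% were at least 2-fold lower. Btrc ranked 1st in both Inv1 comparisons and 2nd in Dup, with log2 ratios of 3.91, 4.19 and 1.83 on that scale. In the mesenchyme the same measure gave Btrc 0.03, -0.03 and 0.39, and 61.6%, 51.7% and 99.6% of measured genes lay lower. There 0.0329%, 0.0577% and 0.0318% of genes were at least 2-fold higher and 0.0329%, 0.0288% and 0.0318% at least 2-fold lower. The mean level of Btrc in mesenchyme was under the 50 CPM asked of a measured gene.

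The AER share of all Btrc UMIs of a library lay above wild type with intervals apart in Inv1, whereas in Dup the intervals overlapped. The AER made up 1.38% of the cells of the Inv1 hindlimb library and held 48.5% of its Btrc UMIs (46.8% to 50.3%), against 0.589% of cells and 2.14% of Btrc UMIs in G4. In the forelimb, 1.06% of Inv1 cells held 41.5% of Btrc UMIs (39.3% to 43.7%), against 0.362% of cells and 0.663% of Btrc UMIs in G4. Dup AER cells, 0.538% of their library, held 3.18% of Btrc UMIs (2.40% to 4.13%), against 2.19% (1.13% to 3.79%) in 0.711% of C57BL/6 wild-type cells, and these intervals overlap. Of all UMIs, AER cells held 0.446% in Dup and 0.868% in C57BL/6 wild type. In each of these libraries the AER thus held more of the Btrc UMIs than of all UMIs. In G4 forelimbs, with 5 Btrc UMIs in the AER, the interval of 0.216% to 1.54% held the AER share of all UMIs, 0.273%. For the other 4 genes AER cells held 0.292% to 1.59% of the UMIs in the mutant libraries and 0.170% to 1.29% in the wild-type libraries, where AER cells held 0.446% to 1.12% and 0.273% to 0.868% of all UMIs.

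Wild-type hindlimbs already had more Btrc in the AER than in mesenchyme. The AER level was 2.61 times that of mesenchyme in C57BL/6 hindlimbs (1.34 to 4.60) and 4.64 times in G4 hindlimbs (3.09 to 6.70), while in G4 forelimbs the 5 UMIs gave 2.46 times (0.796 to 5.77). The AER levels of the 3 wild-type libraries overlapped in their counting intervals, from 31.5 to 107 CPM in C57BL/6, 72.2 to 155 CPM in G4 hindlimbs and 22.3 to 161 CPM in G4 forelimbs. Within the mutant libraries the AER exceeded the mesenchyme 7.44 times in Dup, and 93.0 and 79.4 times in Inv1 hindlimbs and forelimbs.

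**Figure D1:**
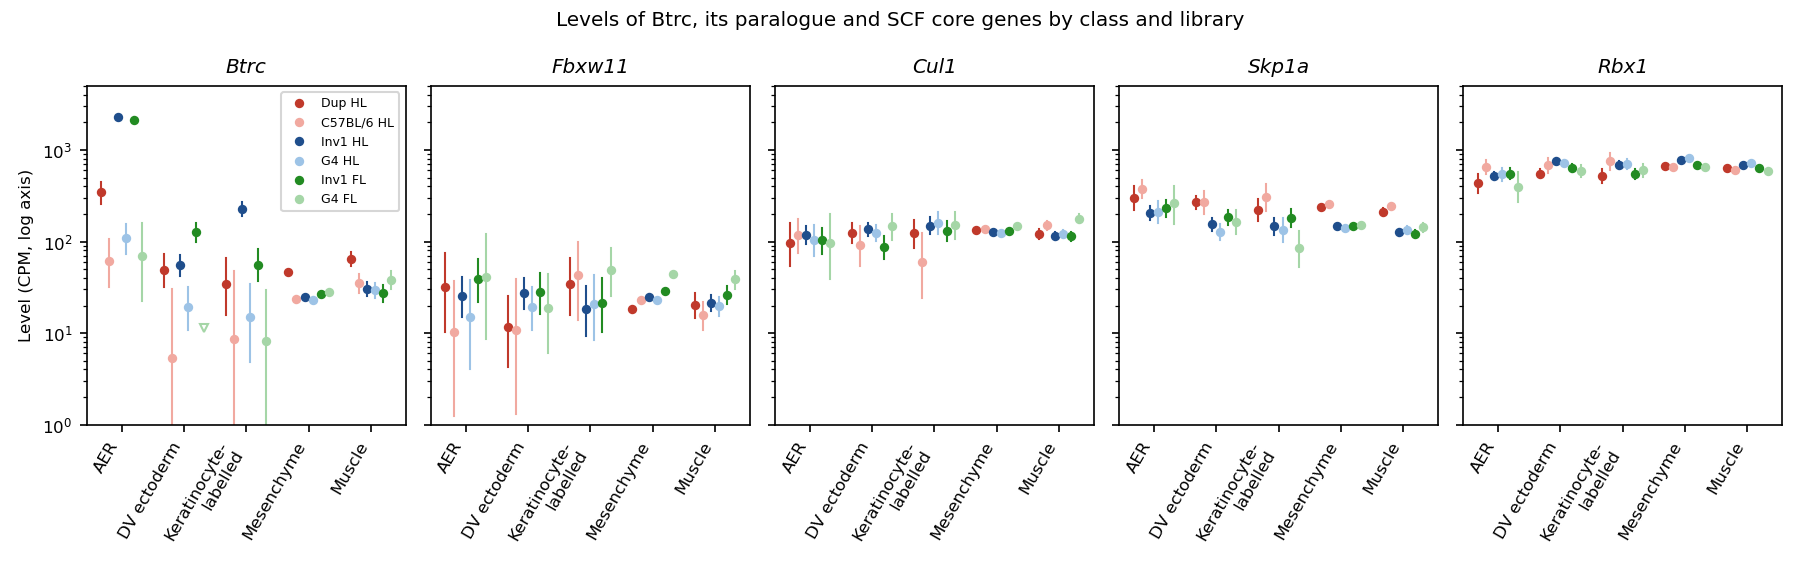
Levels of the 5 genes in CPM on a log axis, by cell class, with mutant libraries in dark and wild-type libraries in light colours (HL, hindlimb; FL, forelimb). Points are 1 library each, bars are exact Poisson intervals, and the open triangle marks the level that 3 UMIs would give in G4 forelimb ectoderm, where Btrc was at 0. Btrc in the AER spans 61.0 to 2316 CPM over the libraries, whereas Cul1 there spans 95.9 to 119 CPM.

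In mesenchyme the Btrc intervals of the Dup and Inv1 pairs lay apart. Btrc was at 46.5 CPM in Dup against 23.4 CPM in C57BL/6 wild type, a ratio of 1.99 (1.78 to 2.21). In Inv1 mesenchyme it was at 24.9 against 23.2 CPM in G4 hindlimbs (1.07, 0.990 to 1.16) and at 26.6 against 28.0 CPM in G4 forelimbs (0.952, 0.861 to 1.05). In muscle Btrc was at 65.2 CPM in Dup against 35.2 in wild type (1.86, 1.39 to 2.50) and 30.3 in Inv1 against 29.6 in G4 hindlimbs (1.02, 0.791 to 1.33). In forelimb muscle Btrc was at 27.3 CPM in Inv1 and 38.2 CPM in G4 (0.716, 0.518 to 0.990), and median-of-ratios scaling, which raised ratios in that class by 0.22 on the log2 scale, gave 0.835 and takes the upper bound past 1. Endothelial cells had few Btrc UMIs and ratios on both sides of 1, with 8.83 CPM in Inv1 (7 UMIs) and 31.5 CPM in G4 (12 UMIs) in forelimbs (0.280, 0.0935 to 0.773) and 22.7 against 17.0 CPM in hindlimbs (1.33, 0.602 to 2.91).

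The finer classes named for the C57BL/6 pair allow the Dup ratio to be read along the limb. Btrc was at 42.3 in Dup against 21.6 CPM in wild-type autopod mesenchyme, 48.3 against 21.3 CPM in zeugopod mesenchyme and 49.6 against 25.0 CPM in stylopod mesenchyme, for ratios of 1.96, 2.27 and 1.98. Autopod and stylopod chondrocyte progenitors gave 2.18 and 1.69, and muscle connective tissue 1.88. The intervals of these 6 classes all excluded 1 and all overlapped each other. In immune cells Btrc was at 44.2 CPM in Dup (30 UMIs) against 14.5 CPM in wild type (7 UMIs), a ratio of 3.04 (1.31 to 8.19), and in endothelial cells at 22.3 (8 UMIs) against 10.9 CPM (4 UMIs), 2.04 (0.546 to 9.25). Set against this limb-wide level, the Dup ratio in the AER was 2.85 times that in mesenchyme (1.51 to 5.37) and 3.05 times that in muscle (1.53 to 6.06), but 0.625 times that in dorso-ventral ectoderm, with an interval of 0.0769 to 5.07 that rests on 1 wild-type ectoderm UMI. In Inv1 the AER ratio was 20.0 times the mesenchyme ratio in hindlimbs (13.8 to 29.2) and 32.3 times in forelimbs (13.3 to 78.2). Against dorso-ventral ectoderm it was 7.55 times in hindlimbs (3.83 to 14.9) and could not be told from equal in forelimbs, where G4 ectoderm had 0 UMIs (0.457, 0.0247 to 8.44, with 0.5 in place of 0).

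**Figure D2:**
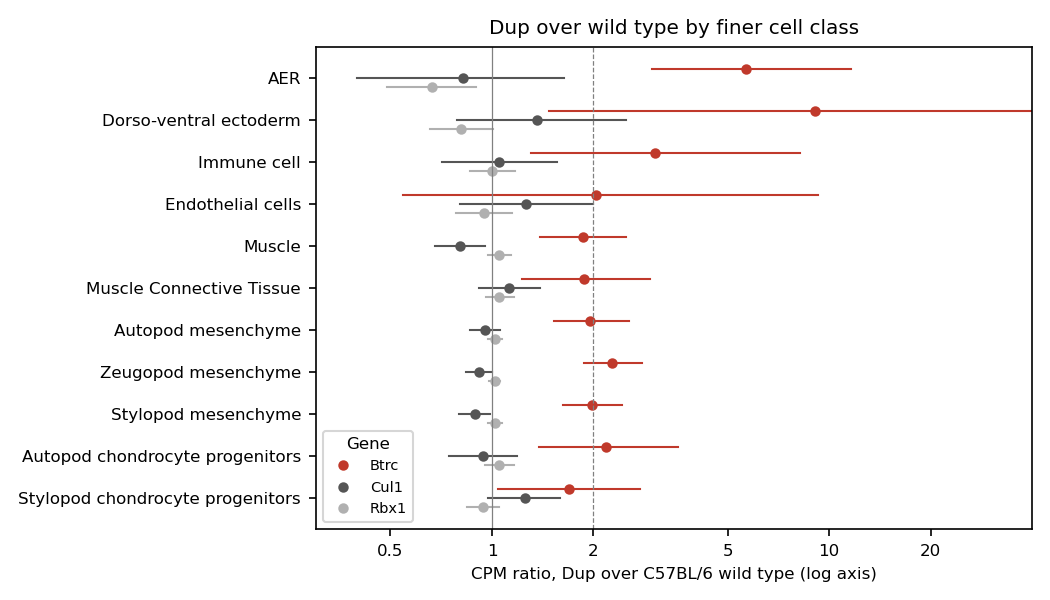
Ratio of CPM in Dup over C57BL/6 wild-type hindlimbs for Btrc, Cul1 and Rbx1 in 11 cell classes, on a log axis, with points for the ratio and bars for its 95% counting interval. The lines mark ratios of 1 and 2. Btrc lies between 1.69 and 2.27 in the classes from muscle connective tissue to stylopod chondrocyte progenitors and at 5.66 in the AER, and its interval in dorso-ventral ectoderm runs to 372, past the axis.

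Single cells show how the AER level was reached. Every Inv1 AER cell had at least 1 Btrc UMI, with 1 to 53 and a median of 17 in the 82 hindlimb cells and 1 to 57 and a median of 18 in the 39 forelimb cells. G4 AER cells had 0 to 3 UMIs (median 1) in the hindlimb and 0 to 4 (median 0) in the forelimb. The ranges met in 1 hindlimb and 1 forelimb Inv1 cell, each with 1 UMI, and the other 81 and 38 Inv1 cells had 5 or more UMIs, which no G4 AER cell had. The level was thus carried by nearly all cells of the class, and the highest cell held 3.44% and 6.96% of the UMIs.

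Dup AER cells overlapped with wild type cell by cell. They had 0 to 7 Btrc UMIs with a median of 2, against 0 to 4 with a median of 0.5 in C57BL/6 wild type. A Btrc UMI was found in 20 of 25 Dup cells, 80.0% (59.3% to 93.2%), against 8 of 16 wild-type cells (24.7% to 75.3%). With each cell thinned to 4000 UMIs in a single random draw, the shares were 80.0% against 31.2%. At 2000 UMIs they were 36.0% in Dup against 0 of 16 wild-type cells. Endothelial cells at 4000 UMIs gave 11.8% in Dup and 0% in wild type, of 34 and 25 cells, the last of which allows up to 12.0%. Depth differed between these AER cells, with a median of 5691 UMIs in Dup and 8268 in wild type. Markers of mesenchyme also differed: 3 of the 16 wild-type cells and 1 of the 25 Dup cells held UMIs of 10 or more of the 16 mesenchyme markers. These held 5 of the 12 wild-type and 5 of the 54 Dup Btrc UMIs, and without them Btrc was at 334 CPM in Dup against 66.4 CPM in wild type.

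Inv1 AER cells also differed among themselves. The middle 50 percent of Inv1 AER cells ran from 16.4 to 29.7 Btrc UMIs per 10000 UMIs in the hindlimb and from 14.8 to 26.4 in the forelimb. Cells with and without UMIs of Lbx1, the neighbouring transcription factor gene on the other side of Btrc from Fgf8, had overlapping intervals. Btrc was at 2309 CPM (2172 to 2452) in the 54 Inv1 hindlimb AER cells with an Lbx1 UMI and at 2334 CPM (2128 to 2555) in the 28 without. In the forelimb it was at 2066 CPM in 28 cells with and 2287 CPM in 11 without an Lbx1 UMI, and in Dup at 379 CPM in 17 cells with and 264 CPM in 8 without. The 12 Inv1 hindlimb AER cells that still had an Fgf8 UMI held Btrc at 2182 CPM and the other 70 at 2343 CPM.

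Cells with 5 or more Btrc UMIs mark where high Btrc was found in the whole limb bud, and this limit was chosen after the values were seen. In the Inv1 hindlimb library 96 of 5947 cells passed it and in the Inv1 forelimb 44 of 3675, and all of them were epithelial: 81 and 38 in the AER, 4 and 5 in the dorso-ventral ectoderm, and 11 and 1 in the class labelled keratinocytes. The G4 libraries had 1 such cell of 5606 and 2 of 2766, none of them epithelial. Dup had 6 of 4648, of which 3 were AER, 2 muscle and 1 immune cells, and C57BL/6 wild type 0 of 2249, which allows up to 3 cells by the same count floor.

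The keratinocyte label was therefore the other class with high Btrc in the Inv1 hindlimb. Its level there was 228 CPM (136 UMIs in 39 cells), against 14.9 CPM (5 UMIs in 29 cells) in G4, a ratio of 15.3 (6.40 to 47.9). The 11 cells with 5 or more UMIs held 131 of the 136. These 11 cells expressed AER markers, with the 9 AER markers other than Fgf8 at a sum of 843 CPM, against 94.6 CPM in the other 28 keratinocyte-labelled cells and 2392 CPM in the 81 AER cells with 5 or more Btrc UMIs. The authors' separate annotation of hindlimb cells called 10 of the 11 AER, and it moved 11 of the 39 Inv1 and 3 of the 29 G4 cells of this label to the AER. In the moved cells Btrc was at 1274 CPM in Inv1 (117 UMIs) and 109.9 CPM in G4 (3 UMIs), and in those it kept as keratinocytes at 37.6 CPM (22.6 to 58.7) in 28 Inv1 cells, against 6.48 CPM (0.785 to 23.4) in 26 G4 cells. Of the 19 UMIs in the kept Inv1 cells 14 were in 1 cell, which had 34783 UMIs in all and 4 of the 9 AER markers. In the forelimb, keratinocyte-labelled cells had 56.0 CPM in Inv1 (26 UMIs, 17 of them in 1 cell) against 8.16 CPM in G4 (2 UMIs).

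In the Inv1 dorso-ventral ectoderm, the surface epithelium on either side of the ridge, most Btrc UMIs were likewise in few cells. Btrc was at 55.1 CPM in Inv1 hindlimbs against 19.3 CPM in G4 (56 and 15 UMIs, 2.85, 1.59 to 5.42). In forelimbs it was at 126 CPM in Inv1 (72 UMIs) against 0 UMIs in 24 G4 cells, so that with the G4 library set to the floor of 3 UMIs Btrc was at least 11.2-fold higher. In the hindlimb 36 of the 56 Inv1 UMIs were in 4 cells, and in the forelimb 59 of 72 were in 5 cells, 30 of them in 1. Those cells carried AER markers at 995 and 961 CPM, against 217 and 227 CPM in the other ectoderm cells of the same libraries, and their median depths, 10338 and 10621 UMIs, were near those of the class, 9922 and 12174. The separate annotation left the 4 hindlimb cells in the ectoderm, unlike most of the high keratinocyte-labelled cells, and whether they belong to the AER was not tested. Among ectoderm cells without UMIs of 2 or more of 6 AER markers, a split chosen after the values were seen, Btrc was at 30.6 CPM (18 UMIs) in Inv1 against 17.3 CPM (6 UMIs) in G4 hindlimbs, with a ratio of 1.77 (0.672 to 5.44), and at 18.7 CPM (6 UMIs) in Inv1 against 0 UMIs in G4 forelimbs. Of the 18 Inv1 hindlimb UMIs, 8 were in 1 cell.

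Dup ectoderm was unlike this. Its Btrc level, 48.9 CPM against 5.40 CPM in wild type, came from 25 UMIs in 22 of 62 cells with at most 2 in any cell, and from 1 UMI in 11 wild-type cells, so that the ratio of 9.06 has an interval of 1.48 to 372. A Btrc UMI was found in 35.5% of Dup ectoderm cells (23.7% to 48.7%), against 9.09% in wild type (0.230% to 41.3%), and after thinning to 4000 UMIs in 19.4% against 0%, where 11 cells allow up to 27.3%. The median depths of these cells were 7454 UMIs in Dup and 13499 in wild type. The Dup level in ectoderm was close to its level in mesenchyme, 46.5 CPM.

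**Figure D3:**
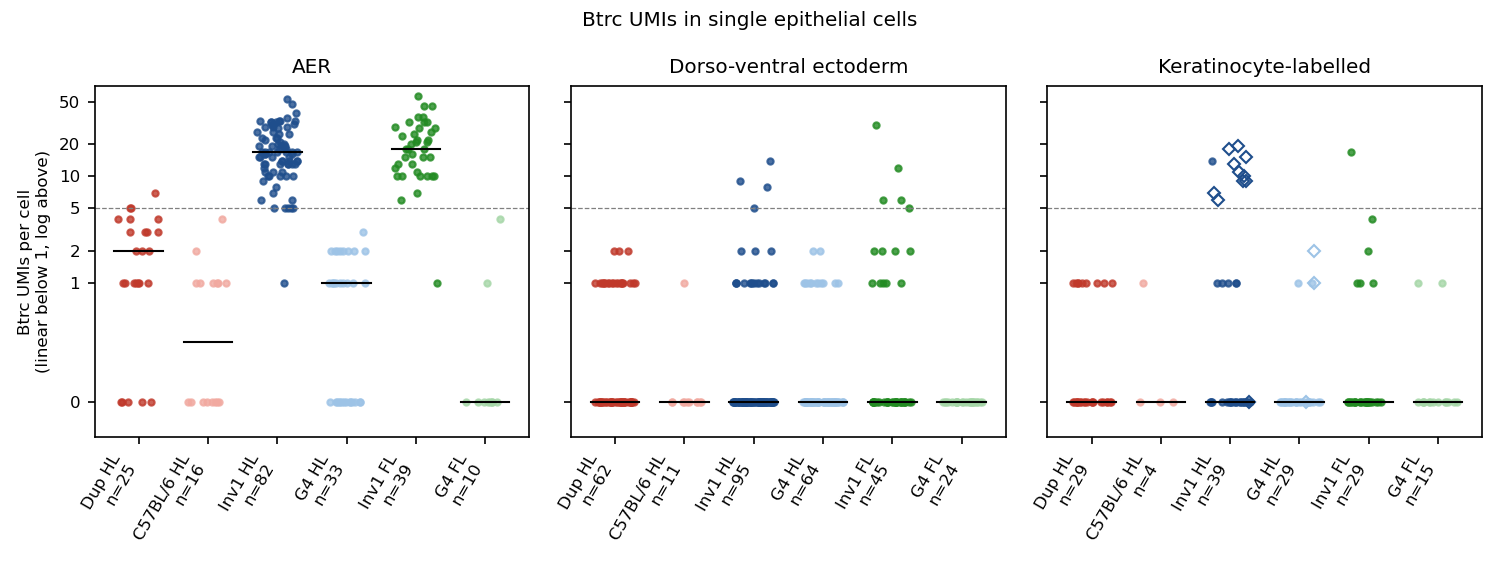
Btrc UMIs per cell in AER, dorso-ventral ectoderm and keratinocyte-labelled cells of each library, on an axis that is linear below 1 and logarithmic above. Each point is a cell, black bars are medians, the dashed line is at 5 UMIs, and open diamonds are keratinocyte-labelled hindlimb cells that the separate annotation called AER. All but 1 cell in each Inv1 AER lie on or above the line, and 11 Inv1 hindlimb keratinocyte-labelled cells do.

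Fbxw11, which encodes the other beta-TrCP and binds the same substrates, had few UMIs in the AER. It was at 25.6 CPM in Inv1 against 14.9 CPM in G4 hindlimbs (17 and 4 UMIs), 38.7 against 41.3 CPM in forelimbs (15 and 3 UMIs) and 32.0 in Dup against 10.2 CPM in wild type (5 and 2 UMIs), and all 3 intervals held 1. The Dup ratio of 3.14 (0.515 to 33.0) cannot be told from that of Btrc, which was 1.80 times it (0.311 to 10.4), whereas in Inv1 the Btrc ratio was 12.5 times (3.96 to 39.4) and 32.8 times (7.17 to 149.7) the Fbxw11 ratio in hindlimbs and forelimbs. The split of UMIs between the paralogues rests on these low counts. Btrc took 98.9% and 98.2% of their joint UMIs in Inv1 AER cells of hindlimbs and forelimbs, against 87.9% and 62.5% in G4, and 91.5% in Dup against 85.7% in wild type. In mesenchyme, where counts are larger, Btrc took 72.0% of the joint UMIs in Dup against 50.8% in wild type, and 49.9% and 48.1% in Inv1 against 50.3% and 39.1% in G4 hindlimbs and forelimbs. In Dup mesenchyme Fbxw11 was at 18.1 CPM against 22.7 CPM in wild type, 0.798 times (0.703 to 0.907), so that Btrc and Fbxw11 went in opposite directions there. Among cells with over 3000 detected genes this ratio was 0.926 (0.765 to 1.12).

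The G4 forelimb stood apart for Fbxw11. Its mesenchyme was at 43.7 CPM, against 22.9 CPM in G4 hindlimbs, 1.90 times (1.75 to 2.07), while the other 5 libraries were at 18.1 to 28.7 CPM. Inv1 forelimb mesenchyme, at 28.7 CPM, was thus 0.658 times its wild type (0.603 to 0.718), and Inv1 hindlimb mesenchyme, at 25.0 CPM, 1.09 times its own (1.00 to 1.18). Median-of-ratios scaling put the forelimb ratio at 0.745. Muscle (38.7 CPM) and endothelial cells (49.8 CPM) of the G4 forelimb library were also the highest of the 6 for Fbxw11. Cul1 showed the same library in muscle, at 114 CPM in Inv1 against 178 CPM in G4 forelimbs (0.637, 0.548 to 0.741), where the other 4 libraries were at 149.7 CPM or less. In forelimb mesenchyme Cul1 was at 129 CPM in Inv1 against 148 CPM in G4 (0.870, 0.832 to 0.910), a ratio that became 0.985 under median-of-ratios scaling. Whether limb, genotype or library sets these values cannot be told apart.

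The core genes were near their wild-type levels in the AER, with Rbx1 in the Dup pair as the exception. Cul1, the scaffold, was at 119 CPM in Inv1 against 104 in G4 hindlimb AER cells, 103 against 96.4 in forelimbs and 95.9 in Dup against 117 in wild type, and each interval held 1. Set against Cul1, there were 1948 Btrc UMIs per 100 Cul1 UMIs in Inv1 and 104 in G4 hindlimb AER cells, 2048 in Inv1 and 71.4 in G4 forelimbs, and 360.0 in Dup and 52.2 in wild type. Mesenchyme gave 35.2 in Dup and 17.0 to 20.6 in the other 5 libraries. Since 3' counting captures each gene with its own efficiency, these figures compare libraries and are not the stoichiometry of the complex.

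Skp1a, the adaptor, differed more between the C57BL/6 and G4 libraries than between mutant and wild type. In mesenchyme it was at 241 CPM in Dup against 257 CPM in C57BL/6 wild type, at 146 against 142 CPM in Inv1 and G4 hindlimbs, and at 149 against 151 CPM in Inv1 and G4 forelimbs. G4 wild-type hindlimbs thus had 0.552 times the C57BL/6 level (0.532 to 0.572), with like values in muscle (0.550) and AER (0.563). Strain and matrix were shared within each pair, so that strain, run and processing cannot be told apart. In the AER Skp1a ratios to wild type were 0.799, 0.967 and 0.889 in Dup, Inv1 hindlimbs and Inv1 forelimbs, with intervals that held 1. Of the epithelial classes only keratinocyte-labelled forelimb cells had a Skp1a interval away from 1, with 181 CPM in Inv1 against 85.6 CPM in G4 (2.11, 1.30 to 3.59).

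Rbx1, the RING subunit, was the core gene with a difference in the AER. It was at 435 CPM in Dup (68 UMIs) against 656 CPM in wild type (129 UMIs), a ratio of 0.663 (0.487 to 0.896). On the scale with 50 CPM added its log2 ratio was -0.54, and 8.64% of measured genes lay lower in that comparison. In Inv1 AER cells it was at 521 against 546 CPM in G4 hindlimbs (0.954, 0.784 to 1.16) and at 550.0 against 399 CPM in G4 forelimbs (1.38, 0.932 to 2.11). In mesenchyme, where 12441 to 41379 UMIs make counting error small, its ratios were 1.03 in Dup, 0.940 in Inv1 hindlimbs and 1.06 in Inv1 forelimbs. G4 forelimbs were at 0.795 times G4 hindlimbs there, which is further from 1 than any of these 3 ratios. Within libraries, the AER level of Rbx1 was 1.01 times that of mesenchyme in C57BL/6 wild type and 0.647 times in Dup. In the Inv1 and G4 libraries it was 0.613 to 0.794 times, so in the Dup pair it was the wild type that stood apart.

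Other genes of the pathway were read from 8 lists. Of 23 counted genes of the SCF core and its activation by NEDD8, 14 were measured (a mean of 50 CPM or more over the pair) in Dup AER cells, 13 in Inv1 hindlimb and 12 in Inv1 forelimb AER cells, and 0 passed 2-fold, with median log2 ratios of -0.07, -0.06 and 0.01 beside -0.01, -0.03 and -0.09 over all measured genes. The 9 genes of the COP9 signalosome, which removes NEDD8 from cullins, had 7 measured members in each pair, 0 past 2-fold and medians of -0.14, 0.04 and -0.01. Besides Rbx1 in Dup, some members of both lists had intervals away from 1. Nedd8 (0.820, 0.678 to 0.995) and Cops5 (0.598, 0.393 to 0.916) were lower in Inv1 hindlimbs. Rnf7 was higher in Inv1 forelimbs (2.01, 1.05 to 4.31). The share of all measured genes with such intervals is not given here. Of 7 other cullins 2, 1 and 4 were measured and of 61 other F-box genes 3, 3 and 2, again with 0 past 2-fold, and most F-box genes were too low to be read. Of all measured genes 2.03% in Dup, 1.04% in Inv1 hindlimbs and 4.30% in Inv1 forelimbs passed 2-fold in either direction, so that 0 among so few genes is near that background.

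Genes encoding beta-TrCP substrates were read at the RNA, which does not bear on the proteins. Of 25 counted substrate genes 9, 7 and 8 were measured in Dup, Inv1 hindlimbs and Inv1 forelimbs, and 0 passed 2-fold with 50 CPM added. Of these, 7, 6 and 5 lay above 0, with medians of 0.21, 0.29 and 0.10. Over all measured genes 49.5%, 45.0% and 40.8% lay above 0, and with so few substrate genes the difference was not tested. Ctnnb1, the gene of beta-catenin, was at 793 CPM in Dup against 605 CPM in wild type (1.31, 1.01 to 1.70), at 1129 in Inv1 against 747 CPM in G4 hindlimbs (1.51, 1.29 to 1.78) and at 1286 against 949.9 CPM in forelimbs (1.35, 1.05 to 1.77). Its intervals lay above 1 in all 3 pairs, as did those of Rest, a transcriptional repressor gene, in Inv1 hindlimbs (1.94, 1.23 to 3.18) and of Pdcd4, a translation inhibitor gene, in Inv1 forelimbs (2.18, 1.18 to 4.48). Yap1, a transcriptional coactivator gene, was lower in Inv1 forelimbs (0.496, 0.262 to 0.993). The other substrate genes had intervals that held 1 in each pair, and so did these last 3 in the other pairs. Ctnnb1, Rest, Pdcd4 and Yap1 were named after their values were seen. The share of all measured genes with an interval away from 1 is not given here, so these intervals have no background beside them. The kinases that prime substrates, such as Gsk3b and Csnk1a1, had medians of 0.27, 0.17 and -0.19 over 4, 4 and 5 measured genes. NF-kB targets gave 1 measured gene in Dup, Nfkbia, the gene of an inhibitor that beta-TrCP binds, at 83.2 against 81.4 CPM, and 0 in Inv1.

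With 50 CPM added, the list members past 2-fold were all Wnt/beta-catenin targets, in both directions. Of 7 measured targets in Dup 1 was higher and 0 lower. Of 7 in Inv1 hindlimbs 2 were higher and 1 lower, and of 8 in Inv1 forelimbs 1 was higher and 1 lower. Over all measured genes 2.03%, 1.04% and 4.30% passed in either direction, and with so few targets the difference was not tested. In Inv1 hindlimb AER cells Axin2, a feedback inhibitor of the pathway, was at 244 CPM against 81.7 CPM in G4, the cell cycle gene Ccnd1 at 238 against 52.0 CPM and the secreted inhibitor gene Dkk1 at 58.7 against 301 CPM. In Inv1 forelimb AER cells Axin2 was at 207 against 193 CPM, Ccnd1 at 229.8 against 179 CPM and Dkk1 at 82.6 against 193 CPM (0.429, 0.222 to 0.870), none past 2-fold on that scale. There, Notum, which encodes an enzyme that inactivates Wnt ligands, was at 318 CPM in Inv1 (123 UMIs) against 27.5 CPM in G4 (2 UMIs), beside 235 against 152 CPM in hindlimbs (1.54, 1.09 to 2.23), and the transcription factor gene Tcf7 at 59.4 against 206 CPM (23 and 15 UMIs). In Dup AER cells Lef1, the partner of beta-catenin on DNA, was at 166 CPM against 56.0 CPM in wild type (26 and 11 UMIs). With 10 CPM added, Dkk1 and the substrate gene Pdcd4 also passed 2-fold in Inv1 forelimbs, at -1.13 and 1.08 on the log2 scale, where 15.6% of all measured genes did. With a mean of 20 CPM or more asked for, the kinase gene Ikbkb did in Inv1 forelimbs, at -1.04, where 3.05% of all measured genes did. The list medians over 7, 7 and 8 measured genes were 0.11, 0.20 and -0.13 in Dup, Inv1 hindlimbs and Inv1 forelimbs. Fgf8 was low in the same Inv1 AER cells, and its part in these values was not tested.

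**Figure D4:**
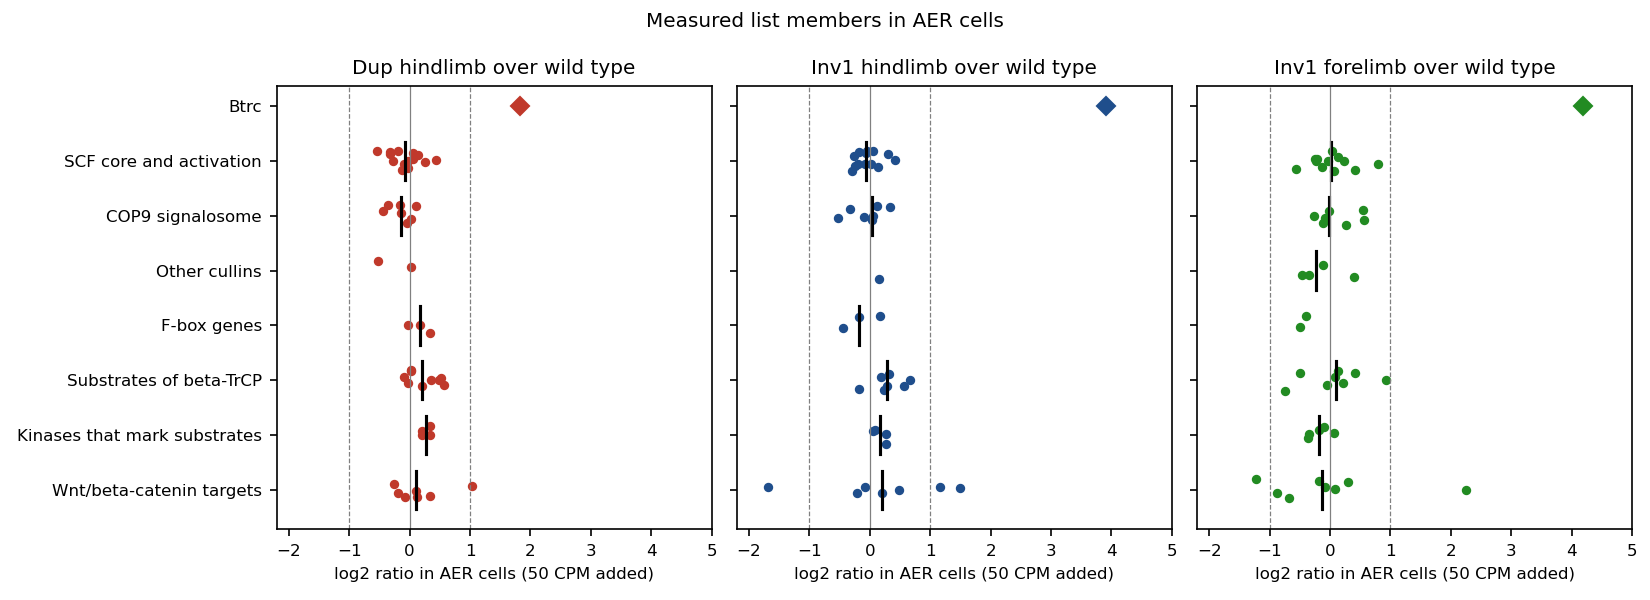
Log2 ratio to wild type in AER cells, with 50 CPM added, of each measured gene of 7 lists and of Btrc (diamond), for the 3 pairs. Points are genes, black bars are medians of lists with 3 or more measured genes, and dashed lines mark 2-fold. Btrc lies at 1.83, 3.91 and 4.19, and on this scale the other genes past 2-fold are Wnt/beta-catenin targets.

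Genes with a mean of 20 CPM or more over 24 values, those of AER, dorso-ventral ectoderm, mesenchyme and muscle in each library, were ranked by likeness to Btrc. The most similar of these 6053 genes were Notum, Fgf4, Ndufaf4, Rnpep and Aox3, with Pearson correlations of 0.88, 0.86, 0.84, 0.83 and 0.82 on log2 levels with 10 CPM added. The 24 values share libraries and depth, and the correlation describes them without a test. The limit of 20 CPM counted the Inv1 AER values, where Btrc was highest, so genes low elsewhere could pass it through those values. Fgf4, an FGF of the ridge, was at 309 CPM in Inv1 hindlimb and 225 CPM in Inv1 forelimb AER cells against 0 UMIs in both G4 libraries, and at 51.2 CPM in Dup against 56.0 CPM in C57BL/6 wild type. In the other ranked classes Fgf4 was at 0.455 CPM or less, so it passed the limit through its Inv1 AER values. Notum, the most similar gene, was at 235 and 318 CPM in Inv1 hindlimb and forelimb AER cells and at 152 CPM or less elsewhere. It too passed the limit only with those Inv1 AER values. Aox3, an aldehyde oxidase gene, was at 376 against 78.0 CPM and 333 against 124 CPM in the Inv1 pairs and at 141 against 112 CPM in the Dup pair. It had 0 UMIs in dorso-ventral ectoderm in all 6 libraries. The other members were far from Btrc in this ranking, with 0.33 for Fbxw11, 0.31 for Skp1a, -0.36 for Cul1 and -0.51 for Rbx1, and Lbx1 had 0.52.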

How the data were processed

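Droplet single-cell RNA-seq with 3' counting was carried out on trypsin-dissociated limb buds, in single replicates. Per the files, each deposited matrix holds whole-number UMI counts, unnormalized. Reads had been aligned and counted by the authors in Cell Ranger (version 3), against their own mm9 reference, and the submitters' processing notes also list mm10. The annotation and use of strand in counting are not given in the sources used here. The authors removed doublets by Scrublet score and named classes from clusters. A pair of count matrices was used (6944 cells of the C57BL/6 pair and 19542 of the G4 and Inv1 libraries), which hold 0 mitochondrial rows. A separate hindlimb matrix was not used here because the file with it that should name genes lists barcodes, while the authors' separate hindlimb annotation (12523 cells) served as an alternative. In the cell table, 17 columns were not used.

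Cells with over 2000 detected genes were kept and no further doublets were called. UMIs were summed per class and library and divided by the class total over genes in both matrices. Exact Poisson (levels), Clopper-Pearson (shares) and conditional binomial (ratios) intervals were computed at 95% in Python 3.11.15 with scipy 1.17.1, and quotients of ratios have intervals on log counts. A group at 0 was set to a floor of 3 UMIs. No test was run, since each group was 1 library. The arithmetic was tested on simulated data. Among genes with a mean of 50 CPM or more over a pair, "past 2-fold" means a ratio of 2 or more, or its inverse, after adding 50 CPM. A gene list has a median where 3 or more members were measured.

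Named genes were the 5 members, list members past 2-fold in AER cells (at most 3 in each direction and pair), the 5 genes most like Btrc, and Lbx1 and Fgf8 beside Btrc. Ctnnb1, Rest, Pdcd4, Yap1, Ikbkb, Gsk3b, Csnk1a1, Nfkbia, Nedd8, Cops5 and Rnf7 were named after their values were seen. Members and lists were chosen with earlier results of these data known. Alternatives were limits of 1000 and 3000 detected genes, median-of-ratios scaling, totals over all genes of a matrix, and means over cells. Others were leaving out cells with mesenchyme markers or the highest Btrc cell, the separate annotation, and a gate on 2 of 6 AER markers. Thinning to 4000 or 2000 UMIs (a single random draw each), Spearman correlation, and other pseudocounts or minimum levels were also used.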

Additional observations from a re-analysis of the deposited data

Results flagged for a closer look

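Rbx1 in mesenchyme had intervals away from 1 on opposite sides in the limbs of Inv1. Its level was 0.940 times that of G4 in the hindlimb (0.927 to 0.953) and 1.06 times in the forelimb (1.04 to 1.09). With 1 library in each group the difference between the limbs was not tested.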

How the results depend on the processing

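No paired analysis was possible because each group has 1 library. Of 233 alternatives run on ratios, 213 stayed within the 95% interval of the reported ratio, among them 76 of 81 for Btrc. Another 19 fell outside it, and 1 reversed the direction of a ratio whose interval lay away from 1. Over the alternatives the Btrc ratio in AER cells was 3.99 to 9.34 in Dup, 20.3 to 29.1 in Inv1 hindlimbs and 19.8 to 131 in Inv1 forelimbs, where 131 came from leaving out the highest Btrc cell of each library, since 4 of the 5 G4 UMIs were in 1 cell. The Btrc ratio in Inv1 forelimb ectoderm at the floor of 3 UMIs, 11.2, became 6.45 without the highest cell. Among cells with over 3000 detected genes it was 7.45. Ectoderm cells outside the AER marker gate gave no such ratio above 1 (6 against 0 UMIs). For Dup ectoderm, leaving out the highest cells left 0 wild-type UMIs and a ratio of 2.60 at that floor. Median-of-ratios scaling moved ratios by 0.17 to 0.25 on the log2 scale in the 4 Inv1 forelimb classes, with Btrc in forelimb mesenchyme at 1.08, and took the Dup ratio of Skp1a in mesenchyme to 1.00, with Rbx1 in mesenchyme at 1.11, 0.909 and 1.20 in Dup, Inv1 hindlimbs and Inv1 forelimbs. Keratinocyte-labelled cells that the separate annotation also called keratinocytes gave a Btrc ratio of 5.80, against 15.3 for all. By Spearman correlation 0 of the 5 genes most like Btrc were among the top 5, with Notum 6th, so that list depends on the measure. With 10 CPM added, 4 in place of 2 list members passed 2-fold in Inv1 forelimb AER cells, 1 of them, Pdcd4, outside the Wnt targets. The 10 to 82 AER cells and 1 library per group set the precision of every AER value.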
